A study of Mus musculus with 54 samples.

Results

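Txnip, Txn1, Txnrd1, Prdx1, Prdx2, Sod1, Sod2, Cat and Gpx1 are the thioredoxin inhibitor and the main enzymes that remove superoxide and peroxides, and their rows in the deposited single-cell count table are described here. They were chosen by name and make up 9 of the 23154 genes of that table, and all 9 passed the filter on low counts in every comparison. The table held 2879 cells of C57BL/6 mice (8 to 10 weeks old) from 54 libraries, made with a modified Smart-seq2 protocol that reads the 3′ ends of mRNA, and the deposited annotation covered 2301 of the cells. Of these, 1270 were steady state cells sorted into 28 populations and 1031 were collected after transplantation. No genetic change or drug was named in the sample labels. In the annotation, the 120 transplanted cells of the 3 libraries that pooled collection days carried the population label GFPP. The population label of the other transplanted cells is not given here, so GFPP cannot be taken as particular to these libraries.

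Steady state stem cell gates (LT_HSC, Fraction I, Fraction III, ESLAM and ESLAMSK) were summed as iHSC, with 305 cells in 12 libraries. The multipotent progenitor gates (ST_HSC, LMPP, MPP1, MPP2, MPP3, MPP4, Fraction II, HPC2 and HPC3) were summed as iMPP, with 508 cells in 17 libraries. Committed progenitors (CMP, GMP and MEP) had 65 cells in 2 libraries, the erythroblast gates (EryA and EryB) 70 cells in 3, granulocytes with monocytes 82 cells in 2, T cells 88 cells in 2, and B with NK cells 79 cells in 2. Transplanted cells of a single collection day numbered 61 on day 1 (3 libraries), 125 on day 3 (3 libraries), 336 on day 5 (7 libraries) and 389 on day 7 (10 libraries). The counts of a group were summed within each library (5 cells or more), and a level is counts per 1000000 of the sum (CPM). Libraries served as replicates; which animals they came from is not stated, so p-values measure the spread between libraries, which may be technical. Levels were not compared between genes, because counts of 3′ ends depend on each gene's own 3′ end. The exceptions are overlapping genes (Junb beside Prdx2 and Gm15441 beside Txnip), where the same limit holds.

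Cells carried 20013 to 1943315 counts (median 203971), and library totals ran from 745742 to 30433157. Libraries L49 and L55 held both steady state and transplanted cells, and the labels of L4 and L49 named other populations than the annotation. Libraries L66, L68, L69 and L70 of day 5 were labelled spleen alone, and no iHSC or iMPP library was. Of the other libraries of a single day, L87 (day 1), L72 (day 5) and L60 (day 7) were labelled bone marrow alone. The rest, on all 4 days, were labelled bone marrow and spleen, so collection day and tissue cannot be fully told apart. Nor can transplantation and tissue in the comparison of day 5 with iHSC, since no iHSC library was labelled spleen alone. After each cell was thinned to 20000 counts, the share of cells with a count of Mki67 or Top2a, which mark cycling cells, was 39.3% in iHSC, 80.3% in iMPP, 72.1% on day 1, 76.8% on day 3, 87.5% on day 5 and 80.98% on day 7. HSC markers summed to 1016 CPM (median) in iHSC, 149 in iMPP, 642 on day 1, 570 on day 3, 266 on day 5 and 128 on day 7. The day 1 libraries ran from 0 to 777 CPM of these markers, against 424 to 1583 in iHSC. Neutrophil markers had medians of 717 CPM in iHSC (libraries 388 to 27458) and 3642 in iMPP (360 to 36906). The medians were 6225 on day 1 (2410 to 137231, the highest in L87) and 308 on day 3 (291 to 2561). On day 5 the median was 571 (211 to 23087) and on day 7 it was 16828 (1336 to 35899). The part of these differences in the results below was not tested.

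Thioredoxin (Txn1) is a small protein that reduces disulfide bonds in other proteins and is itself recharged by thioredoxin reductase (Txnrd1) with electrons from NADPH. Txnip binds reduced thioredoxin and blocks it, also lowers glucose uptake, and is known to be abundant in quiescent haematopoietic stem cells. Superoxide dismutases (Sod1 in the cytosol, Sod2 in mitochondria) turn superoxide into hydrogen peroxide, which catalase (Cat), glutathione peroxidase (Gpx1) and the peroxiredoxins (Prdx1 and Prdx2) break down.

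The promoters of Txnip and Prdx1 are shown because Txnip had the largest fitted difference from iHSC of the 9 members in iMPP and on each day, and because Prdx1 was the called thioredoxin system enzyme with an antioxidant response element core in its promoter. Each is the 250 bases before the start site in RefSeq (GRCm38.p6), 5′ to 3′ on the gene's strand, with motif matches in capitals.
Txnip chr3:96557707-96557956 (+): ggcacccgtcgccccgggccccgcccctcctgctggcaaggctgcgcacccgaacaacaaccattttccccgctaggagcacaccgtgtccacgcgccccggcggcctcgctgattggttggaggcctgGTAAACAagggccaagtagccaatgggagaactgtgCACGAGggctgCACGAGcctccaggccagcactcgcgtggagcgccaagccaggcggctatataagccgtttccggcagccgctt
Prdx1 chr4:116685349-116685598 (+): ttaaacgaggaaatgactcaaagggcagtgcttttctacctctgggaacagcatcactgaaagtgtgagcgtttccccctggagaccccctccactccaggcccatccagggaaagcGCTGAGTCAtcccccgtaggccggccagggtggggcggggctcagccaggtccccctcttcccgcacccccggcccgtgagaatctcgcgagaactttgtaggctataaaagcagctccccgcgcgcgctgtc
The Txnip promoter held CACGAG, a variant of the E-box, at −85 and −74 from the start site, and the forkhead motif GTAAACA at −121. The Prdx1 promoter held TGACNNNGC, the core of the antioxidant response element, once at −133 on the opposite strand. The same core was found for Txnrd1 (−92) and Sod1 (−56), which were called in no comparison. Among all 32851 promoter windows of 300 bases, searched on both strands, 6.47% held CACGAG, 3.65% held GTAAACA, 12.4% held TGACNNNGC and 7.15% held the E-box CACGTG. All 9 genes had a promoter entry. These matches are letters in a window and not measured sites.

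In the GRCm38 annotation Txnip lies at chr3:96557957-96561883 on the plus strand, Txn1 at chr4:57943373-57956411 (minus) and Txnrd1 at chr10:82833951-82897712 (plus). Prdx1 lies at chr4:116685544-116700822 and Prdx2 at chr8:84969587-84974834 (both plus). Sod1 lies at chr16:90220754-90226329, Sod2 at chr17:13006846-13040063, Gpx1 at chr9:108338903-108340343 (all plus) and Cat at chr2:103453849-103485160 (minus). Prdx2 and Txnip overlap other genes on the opposite strand (Junb and Rnaseh2a, and Gm15441), Sod1 overlaps Scaf4 and Txnrd1 overlaps 3 genes. Whether the counting used strand was not stated, so reads of such pairs may be mixed.

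**Figure D1:**
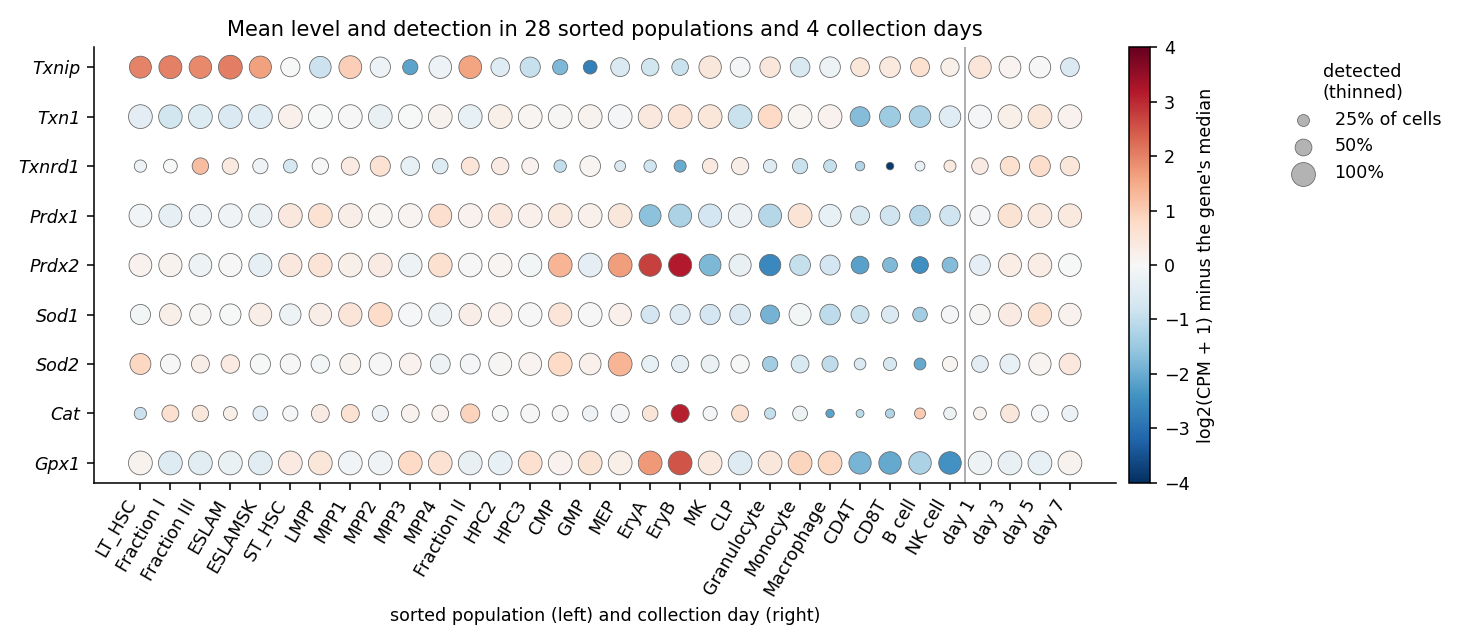
The 9 genes (rows) in the 28 steady state populations and on the 4 collection days (columns); dot size is the percent of cells with a count after thinning to 20000 counts per cell, and colour is the log2 (CPM + 1) of the mean level minus the gene's median over the columns. Txnip is highest in the 5 stem cell gates and Fraction II, and Prdx2 and Gpx1 are highest in EryA and EryB.

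Txnip, the inhibitor, was highest in the stem cell gates. In the 12 iHSC libraries its level ran from 204 to 1480 CPM with a median of 756, and its mean was 724 ± 344 CPM (SD, n = 12). It was detected in 89.9% of iHSC after every cell was thinned to 20000 counts, and in 99.4% at full depth. By gate the mean was 805 ± 70.1 CPM in ESLAM (SD, n = 2), 795 ± 31.6 in Fraction I (n = 3), 767 ± 506 in LT_HSC (n = 2), 740 ± 441 in Fraction III (n = 5) and 608 ± 355 in ESLAMSK (n = 3). Fraction II of the progenitor gates came next, at 597 ± 50.8 CPM (n = 2). The library ranges of the 5 stem cell gates all overlap. The Fraction II libraries (561 and 633 CPM) lay inside the ranges of LT_HSC, Fraction III and ESLAMSK, but below all libraries of ESLAM (755 and 854) and Fraction I (762 to 825). MPP1 followed with 386 ± 214 CPM (n = 2), and no later gate had a mean above 302 CPM, the level of B cells. At the low end stood LMPP at 107 ± 65.9 CPM (n = 2), HPC3 at 102 ± 40.1 (n = 3), CMP at 55.7 (1 library), MPP3 at 43.7 ± 2.67 (n = 2) and GMP at 28.3 (1 library). The stem cell gates thus fill the top 5 places, and the granulocyte-monocyte end of the progenitors (MPP3 and GMP) the bottom.

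Progenitors of the iMPP gates held less Txnip than iHSC. Their 17 libraries ran from 45.6 to 633 CPM with a median of 154 (200 ± 163, SD), and 11 of the 17 lay below every iHSC library. The fitted log2 difference was −1.93 ± 0.30 (SE), a 3.81-fold lower level, with an adjusted p of 2.11e-05 in edgeR's quasi-likelihood test. Fitted differences use normalized library sizes (TMM), so they need not equal the ratio of the CPM means. Against iHSC, even the direction differed between the 2 measures for some of the 9 members. These were 4 on day 1, 2 on day 3, 1 on day 5, 1 on day 7 and 0 in iMPP. Of all genes tested in this comparison 9.77% were called at an adjusted p under 0.05. Prdx1 and Gpx1 were called as well and are given with their groups, which makes 3 of the 9 members. In all, 5 libraries held both iHSC and iMPP cells (L14, L49, L50, L51 and L74), and Txnip was lower in the iMPP cells of 5 of 5. The smallest gap was in L14 (410 CPM in iHSC and 307 in iMPP) and the widest ratio in L50 (757 and 127). With these libraries alone and the library as a block, the log2 difference was −1.41 (edgeR adjusted p = 0.00294).

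**Figure D2:**
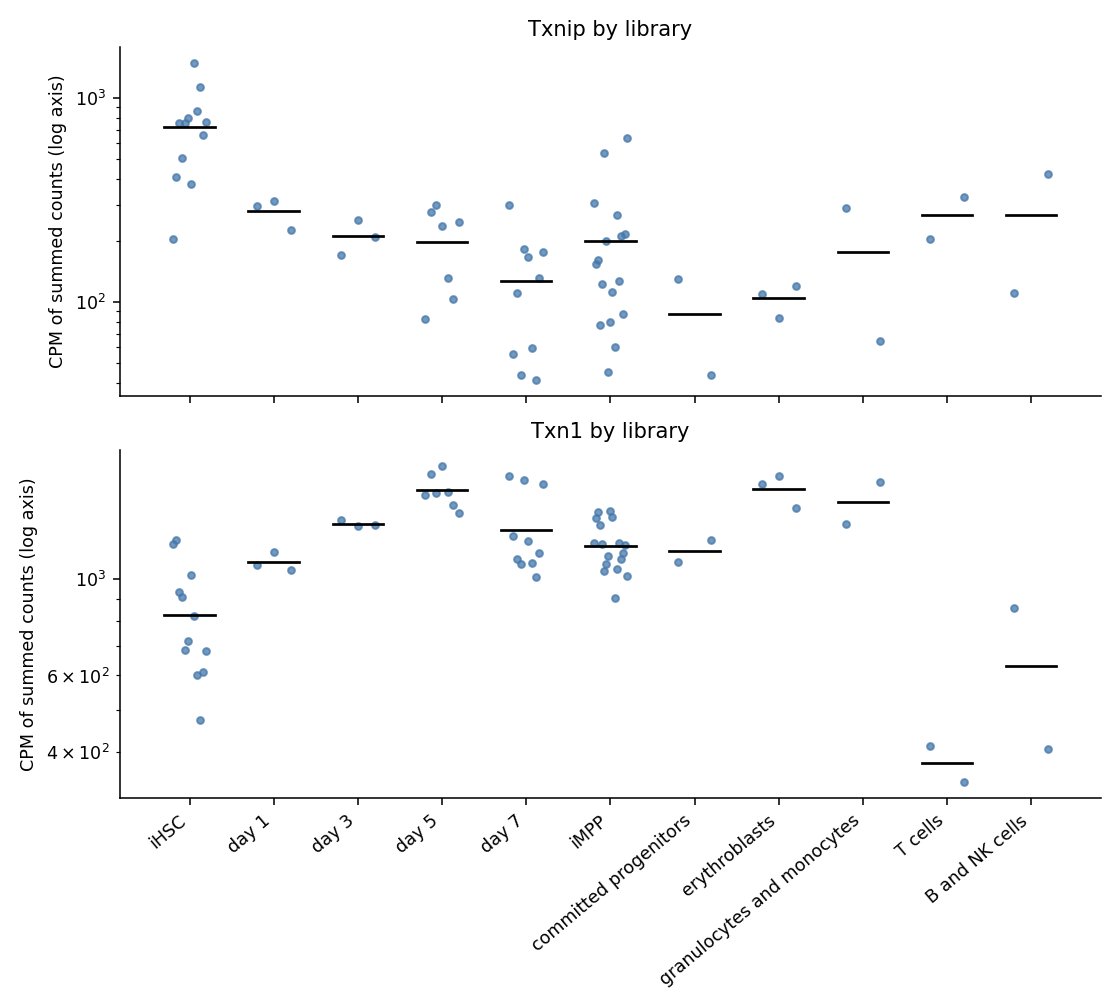
Levels of Txnip and Txn1 in CPM (log axis) in each library of iHSC, the 4 collection days, iMPP and the 5 other steady state groups; points are libraries and lines are means. The Txnip points of day 7 lie between 41.6 and 299 CPM with 9 of 10 under all iHSC points, and all 7 Txn1 points of day 5 lie above all iHSC points.

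After transplantation Txnip was lower than in iHSC on days 3, 5 and 7. The 3 day 1 libraries held 225, 296 and 314 CPM (278 ± 46.9, SD). The 3 day 3 libraries held 171, 208 and 253 CPM (211 ± 41.2). The 7 day 5 libraries ran from 82.5 to 299 CPM with a median of 235, and the 10 day 7 libraries from 41.6 to 299 CPM with a median of 121. All days overlap the lower end of iHSC, whose lowest library is the ESLAMSK library L1, and on day 7 a single library (L47) exceeded it. The share of cells with Txnip after thinning was 89.7% on day 1, 83.8% on day 3, 81.7% on day 5 and 62.1% on day 7, against 92.3%, 97.1%, 99.0% and 91.9% at full depth.

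The fitted log2 difference of Txnip from iHSC was −1.53 ± 0.49 on day 1 (SE, edgeR adjusted p = 0.0788), which was not called, and 0 of the 9 members were. On day 3 it was −1.94 ± 0.50 (edgeR adjusted p = 0.0444), the 1 member called. That call was lost when any of the 3 day 3 libraries was left out (adjusted p 0.176 to 0.185). On day 5 Txnip was 3.91-fold lower (log2 −1.97 ± 0.35, edgeR adjusted p = 0.000347), and on day 7 it was 5.38-fold lower (−2.43 ± 0.31, edgeR adjusted p = 6.83e-07). Of all genes tested, 3.14% were called on day 1, 1.12% on day 3, 7.57% on day 5 and 20.8% on day 7. These 4 comparisons and that of iMPP share the iHSC libraries. The calls of day 5, day 7 and iMPP held in each alternative tried. In both libraries with iHSC and day 7 cells (L49 and L55) Txnip was lower on day 7, and with these alone and the library as a block the difference was −3.42, from sums of 5 day 7 cells in each.

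**Figure D3:**
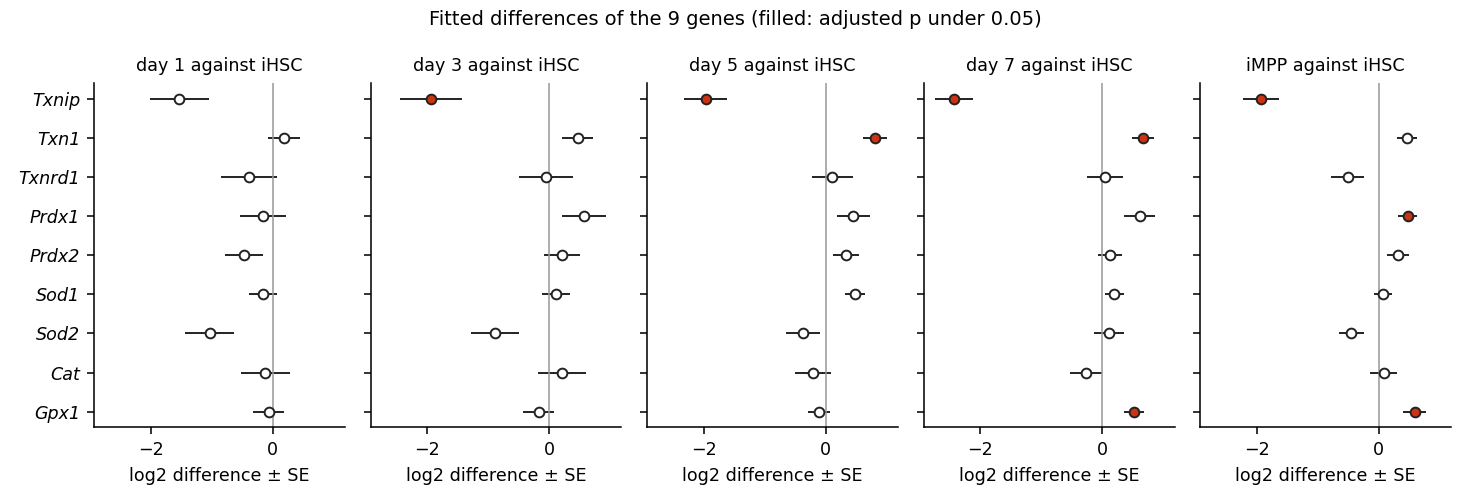
Fitted log2 difference from iHSC (± SE) of the 9 genes on days 1, 3, 5 and 7 and in iMPP; filled points have an adjusted p under 0.05. Txnip is negative in all 5 comparisons and filled in 4, and Txn1 is filled on days 5 and 7.

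Between successive days no member was called. Txnip differed by −0.41 ± 0.56 (log2 ± SE, edgeR adjusted p = 0.955) between day 3 and day 1, by −0.03 ± 0.47 (1.0) between day 5 and day 3, and by −0.46 ± 0.33 (0.828) between day 7 and day 5. The share of all genes called was 0% for day 3 against day 1, where edgeR left 693 genes at an unadjusted p under 0.05 and DESeq2 called 28. It was also 0% for day 5 against day 3 (347 genes unadjusted, 20 called by DESeq2), and 0.404% for day 7 against day 5.

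The authors' predicted types split the transplanted cells further, and since types were called from the transcriptome the levels below are a description. On day 7, cells typed tMPP3 had the lowest Txnip, at 19.6 to 40.8 CPM in 4 libraries (30.9 ± 8.90, SD), detected in 36.7% of thinned cells and 88.4% at full depth. The other day 7 types with at least 3 libraries were higher: tMPP2 at 158 ± 89.7 CPM (n = 5), tMPP5 at 162 ± 107 (n = 4), tME at 203 ± 121 (n = 3) and tGM at 251 ± 122 (n = 5). The highest tMPP3 library is below the lowest library of each of these types. Numbered subtypes were joined (tME1, tME2 and tME3 as tME), and 26 of the 27 day 7 tME cells were typed tME1, with 105659 to 143729 CPM of neutrophil markers. On day 5 tMPP1 held 316 ± 127 CPM (n = 6), tMPP5 212 ± 34.6 (n = 6) and tMPP2 185 ± 93.5 (n = 6). On day 3 tMPP1 held 242 ± 47.6 (n = 3) and tMPP2 179 ± 65.1 (n = 3), and the 1 library with tHSC cells held 627. The 1 day 7 library with tMPP1 cells held 567 CPM. Gpx1 in day 7 tMPP3 was at 2888 to 3301 CPM (3051 ± 196, n = 4), against 2184 ± 202 in day 7 tMPP2. Day 1 had 1 library per type with at least 5 cells, at 310 CPM of Txnip in tMPP1, 231 in tMPP2 and 459 in tLym.

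**Figure D4:**
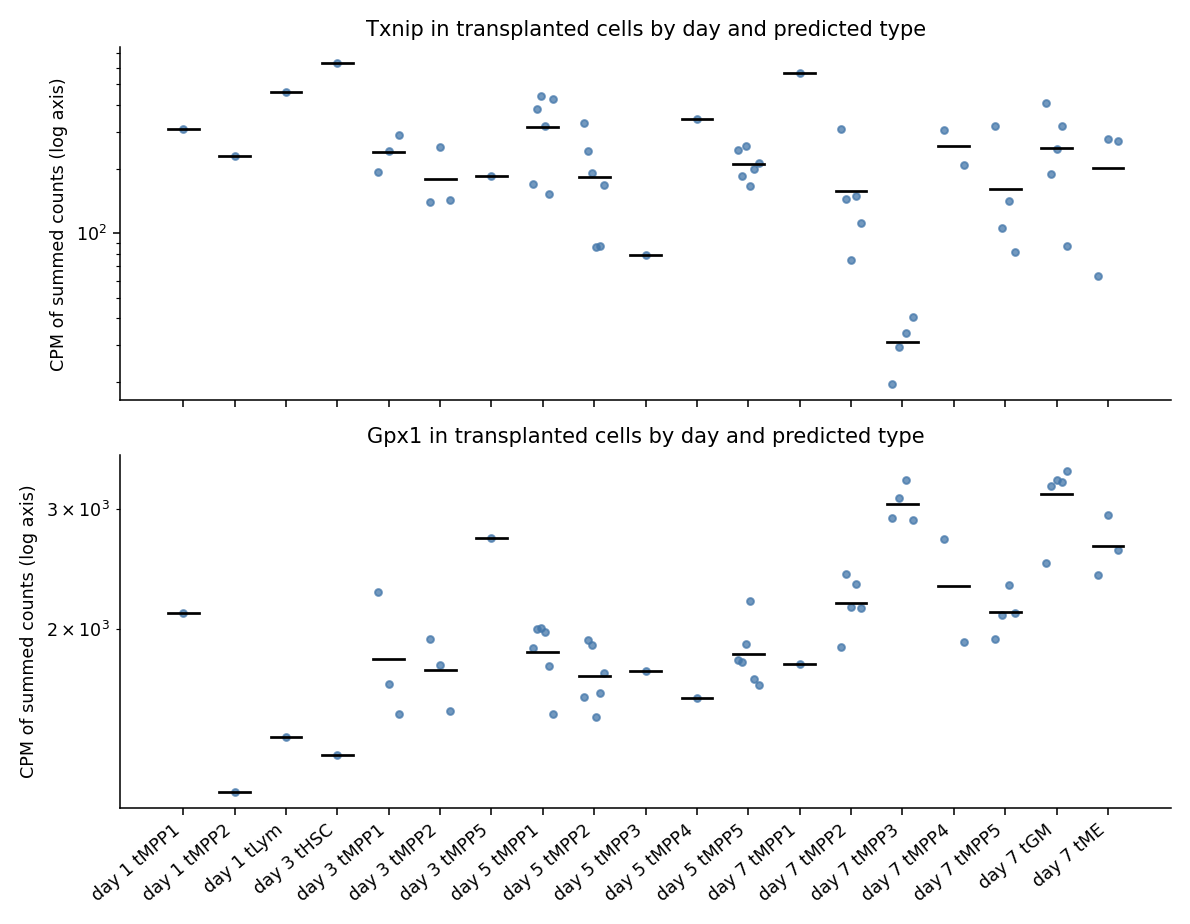
Levels in CPM (log axis) of Txnip (upper panel) and Gpx1 (lower panel) by collection day and predicted type; points are libraries with at least 5 cells of the type and lines are means. The 4 Txnip points of day 7 tMPP3, between 19.6 and 40.8 CPM, are the lowest of the transplanted types shown.

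Within a predicted type, transplanted and steady state cells could be compared, and no member was called. In tMPP1, Txnip was 316 ± 122 CPM (SD, n = 13) in transplanted and 456 ± 241 CPM (n = 5) in steady state libraries, a log2 difference of −0.54 ± 0.27 (SE, edgeR adjusted p = 0.4932). Txn1 in tMPP1 was 1346 ± 265 against 931 ± 123 CPM, a difference of 0.47 ± 0.17 (edgeR adjusted p = 0.262). In this comparison 0.494% of all genes were called. In tMPP2, Txnip was 177 ± 83.6 CPM (n = 18) against 224 ± 123 (n = 8), a difference of −0.35 ± 0.26 (edgeR adjusted p = 0.690), and 0.707% of genes were called. Between day 7 and day 5 tMPP2 cells 0.342% of genes were called, and Txnip differed by −0.10 ± 0.37 (edgeR adjusted p = 0.958). Gpx1 came nearest there, at 2184 ± 202 CPM (n = 5) on day 7 and 1708 ± 177 (n = 6) on day 5, a difference of 0.46 ± 0.11 (edgeR adjusted p = 0.0880).

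Cells with and without a count of Mki67 or Top2a were compared within libraries, and the split was made after each cell was thinned to 20000 counts. In iMPP, Txnip was 250 ± 211 CPM in positive and 335 ± 187 CPM in negative cells (SD, 8 libraries), and it was lower in the positive cells of 6 of 8. The log2 difference was −0.79 ± 0.24 (SE, edgeR adjusted p = 0.109), and 1.8% of genes were called. In transplanted cells Txnip was 196 ± 79.3 against 279 ± 111 CPM (16 libraries), higher in the positive cells of 2 of 16 (−0.62 ± 0.20, edgeR adjusted p = 0.102), and 2.62% of genes were called. No member was called in either comparison. Prdx1 was higher in the positive iMPP cells of 8 of 8 libraries, at 1026 ± 255 against 758 ± 125 CPM (log2 difference 0.32 ± 0.12, edgeR adjusted p = 0.288). Over all genes the median fitted log2 difference was 0.19 in iMPP and 0.20 in transplanted cells, so positive cells were higher in general. How many genes were higher in each of the 8 libraries was not counted.

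Txn1, the thioredoxin that Txnip binds, was higher than in iHSC on days 5 and 7. The iHSC libraries ran from 475 to 1225 CPM (823 ± 238, SD, n = 12). The 7 day 5 libraries ran from 1410 to 1813 CPM with a median of 1573, all above all iHSC libraries, and the 10 day 7 libraries from 1010 to 1714 with a median of 1180. The log2 difference was 0.81 ± 0.19 on day 5 (SE, edgeR adjusted p = 0.00545) and 0.67 ± 0.17 on day 7 (edgeR adjusted p = 0.00502). Without the libraries labelled spleen alone the day 5 difference was 0.70 and was not called (adjusted p = 0.233). With DESeq2 the day 7 difference was 0.46 (adjusted p = 0.0501), and with the 2 groups alone in the fit it was 0.56 (adjusted p = 0.0671). Within L49 and L55 alone it was 0.49 (adjusted p = 0.917). On day 3 the libraries (1317, 1325 and 1364 CPM) also lay above all of iHSC, but the difference of 0.47 ± 0.25 was not called (edgeR adjusted p = 0.549). In iMPP the mean was 1189 ± 154 CPM and the difference 0.45 ± 0.16 (edgeR adjusted p = 0.0700).

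Across the steady state populations Txn1 was highest in Granulocyte (1981 CPM), EryB (1670) and MK (1617) and lowest in CD4T (345). The MK sums held 49134 to 205782 CPM of neutrophil markers and 801 to 1377 CPM of megakaryocyte markers, so the markers go against that gate's name. Neutrophil markers also made up 87988 to 175095 CPM of the EryB sums and 121888 to 178091 CPM of the Granulocyte sums. It was detected in 94.9% to 100% of the thinned cells of each collection day and in 99.4% of iHSC. Txnrd1, the reductase, was called in none of the comparisons. Its iHSC libraries ran from 40.1 to 411 CPM (107 ± 101, SD, n = 12), and its day 7 libraries from 52.7 to 150 (103 ± 31.4, n = 10), a log2 difference of 0.04 ± 0.30 (edgeR adjusted p = 0.942). The reductase was detected in 39.05% of thinned iHSC (67.7% at full depth) and in 66.5% of thinned day 7 cells (90.4%).

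Of the peroxiredoxins, Prdx1 was higher in iMPP than in iHSC. It ran from 470 to 846 CPM in iHSC (640 ± 114, SD) and from 651 to 1308 CPM in iMPP (914 ± 179). The log2 difference of 0.47 ± 0.15 (SE, edgeR adjusted p = 0.0387) stayed between 0.35 and 0.56 over 8 alternatives. The call was lost in 5 of the 8, 1 of them the stricter threshold, with adjusted p between 0.0192 and 0.186. Prdx1 was higher in the iMPP cells of 5 of the 5 libraries that held both groups, for example 968 against 490 CPM in L51. On day 7 Prdx1 was 949 ± 193 CPM (n = 10), a difference from iHSC of 0.61 ± 0.25 that was not called (edgeR adjusted p = 0.0724). The day 1 libraries differed widely, with L87 at 29.5 CPM and the other two at 884 and 1146. L87 is the day 1 library with the neutrophil marker sum given above. Prdx1 was highest in MPP4 (1143 CPM) and LMPP (1109) and lowest in EryA (229).

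Prdx2, the peroxiredoxin that is abundant in red cells, followed the erythroid branch. It was highest in EryB (4149 CPM) and EryA (3058), then in MEP (1490) and CMP (1196), and lowest in Granulocyte (77.1). Committed progenitors held 832 and 1490 CPM against 347 to 796 in the 17 iMPP libraries, so the groups did not overlap. The log2 difference was 1.38 ± 0.31 (SE, edgeR adjusted p = 0.0350), the 1 member called where 0.291% of genes were. Without library L15, which held the MEP cells, it was 0.72 with an adjusted p of 1.0. Erythroid markers summed to 5635 and 10273 CPM in the committed progenitors. On the collection days Prdx2 did not pass the test, with 429 ± 135 CPM in iHSC and 456 ± 101 on day 7 (0.13 ± 0.20, edgeR adjusted p = 0.694). In the lymphocytes it was lower than in iMPP. T cells held 120 CPM in both libraries (−1.53 ± 0.40, edgeR adjusted p = 0.00901) and B with NK cells 84.6 and 137 CPM (−1.85 ± 0.42, edgeR adjusted p = 0.00198). The B with NK sums carried 2463 and 45856 CPM of neutrophil markers, against 360 to 36906 in iMPP (median 3642). Monocyte and macrophage markers made up 1369 and 2360 CPM of these sums, against 27.1 to 3504 in iMPP (median 148). The part of these markers in the differences of B with NK cells was not tested. The T cell call was lost without either library (adjusted p 0.0842 and 0.166) and that of B with NK cells without L3 (0.0747). With the library as a random block neither was called (0.0696 and 0.0916). In granulocytes with monocytes it stood at 168 and 185 CPM, below all iMPP libraries (−1.25 ± 0.39, edgeR adjusted p = 0.0530), and no member was called where 5.13% of genes were.

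The erythroblast gates were mixed, which is given before their results. By the authors' predicted types they held 31 cells typed tME1, 29 typed tME2 and 10 typed tME3. The tME1 sums carried 118963 to 318993 CPM of the 9 neutrophil markers and 202 to 1343 CPM of the erythroid markers. The tME2 sums carried 15667 to 50109 CPM of neutrophil and 25905 to 40695 CPM of erythroid markers. The 4 globin genes of the list had 0 counts over all 2301 cells, so they check nothing here. Neutrophil markers summed to 79679 to 209587 CPM over the whole gates, against 360 to 36906 in iMPP.

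Over the whole gates, 5 of the 9 members differed from iMPP where 14.5% of genes were called. Prdx2 held 2036, 2817 and 4420 CPM, all above iMPP, and was 8.85-fold higher (log2 3.15 ± 0.24, SE, edgeR adjusted p = 2.17e-12). Gpx1 held 6311, 6875 and 11376 CPM, also above all iMPP libraries, and was 4.56-fold higher (2.19 ± 0.25, edgeR adjusted p = 9.52e-09). Cat held 47.9, 85.4 and 320 CPM, overlapping the iMPP range of 43.1 to 90.4, with a log2 difference of 1.74 ± 0.40 (edgeR adjusted p = 0.00174). Txn1 differed by 1.14 ± 0.26 (edgeR adjusted p = 0.00143) and Prdx1 by −1.09 ± 0.28 (edgeR adjusted p = 0.00483), with no overlap of either with iMPP. Junb, which overlaps Prdx2, held 169 ± 180 CPM in these gates and 87.7 ± 58.6 in iMPP. In T cells Junb held 1565 ± 1580 CPM (SD, n = 2) and in B with NK cells 1302 ± 893 (n = 2), above Prdx2 in both groups. Whether reads of Junb entered the Prdx2 counts was not tested.

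**Figure D5:**
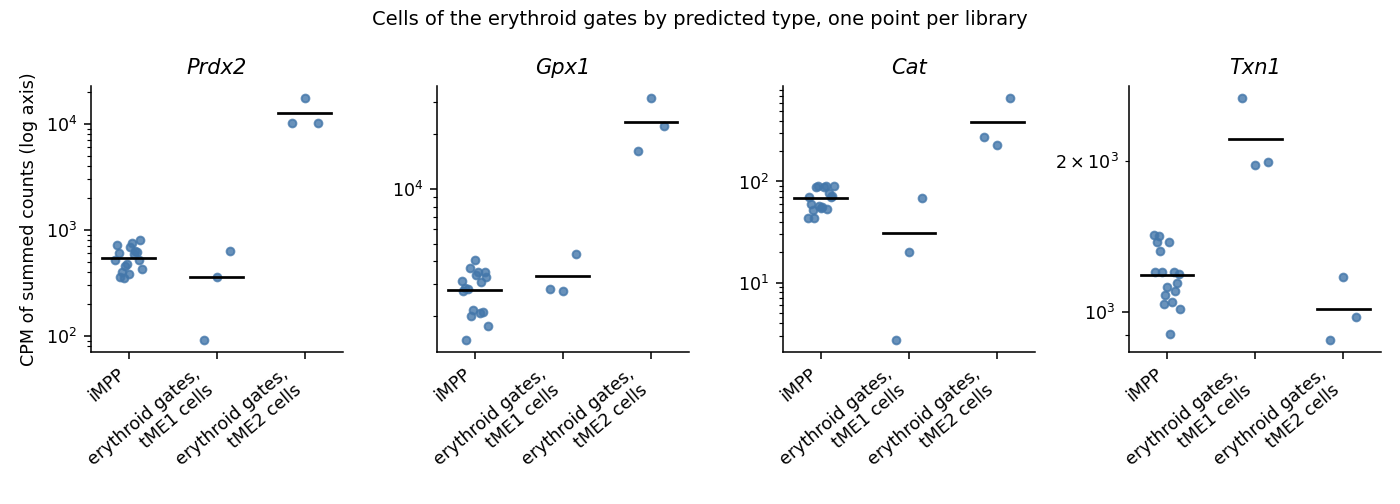
Prdx2, Gpx1, Cat and Txn1 in CPM (log axis) in iMPP and in the tME1 and tME2 cells of the erythroblast gates; points are libraries and lines are means. Prdx2 lies at 92.1 to 633 CPM in tME1 and 10150 to 17542 in tME2, while Txn1 lies at 1968 to 2677 in tME1 and 883 to 1177 in tME2.

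Levels by type within the gates are a description, since types were called from the transcriptome. Prdx2 was 92.1 to 633 CPM in the 3 tME1 sums and 10150 to 17542 CPM in the 3 tME2 sums. Gpx1 was 2751 to 4384 against 16095 to 31699 CPM, and Cat 2.74 to 68.96 against 228 to 669 CPM. Txn1 lay the other way, at 1968 to 2677 CPM in tME1 and 883 to 1177 in tME2, and Prdx1 at 47.6 to 136 against 240 to 427. Without the tME1 cells the differences from iMPP were 4.07 for Prdx2, 2.86 for Gpx1 and 2.63 for Cat on the log2 scale, all still called. Those of Txn1 (0.11, edgeR adjusted p = 0.815) and Prdx1 (−0.38, edgeR adjusted p = 0.329) were not. Without library L42 the differences of Cat (0.87, edgeR adjusted p = 0.272) and Prdx1 (−0.79, edgeR adjusted p = 0.0951) were not called. All 3 gate libraries also held iMPP cells, and with these libraries alone and the library as a block Cat was not called (1.36, edgeR adjusted p = 0.106), while the other 4 were.

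The superoxide dismutases showed no called difference. Sod1 ran from 224 to 441 CPM in iHSC (320 ± 70.7, SD) and from 344 to 543 CPM on day 5 (475 ± 71.2), with a log2 difference of 0.48 ± 0.17 (SE, edgeR adjusted p = 0.0723). It was highest in MPP2 (526 CPM) and lowest in Granulocyte (83.9). Sod2 held 244 ± 112 CPM in iHSC, with day 1 at 143 ± 97.8 (log2 difference −1.03 ± 0.40, edgeR adjusted p = 0.169). Its level in committed progenitors was 285 and 500.1 CPM, above all iMPP libraries (1.37 ± 0.36, edgeR adjusted p = 0.0859), and it was highest in MEP (500.1 CPM) and lowest in B cell (45.9).

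Of the enzymes that break down hydrogen peroxide, Gpx1 was higher than in iHSC on day 7 and in iMPP. In iHSC it ran from 952 to 3419 CPM (1813 ± 629, SD), on day 7 from 1989 to 3274 (2526 ± 375) and in iMPP from 1487 to 4095 (2797 ± 747), and the groups overlap. The log2 difference was 0.52 ± 0.17 on day 7 (SE, edgeR adjusted p = 0.0231), and this call was lost in 7 of 10 alternatives, with a difference of 0.31 (adjusted p = 0.175) under RLE scaling and 0.22 (adjusted p = 0.999) within L49 and L55 alone. In iMPP it was 0.58 ± 0.18 (edgeR adjusted p = 0.0358), a call lost in 5 of 8. Within the 5 libraries that held both iHSC and iMPP, Gpx1 was higher in iMPP in 3 and lower in 2, and the difference was 0.036 (edgeR adjusted p = 0.974). On day 5 Gpx1 was 1816 ± 227 CPM, a difference of −0.11 ± 0.19 (edgeR adjusted p = 0.780). T cells held 521 and 653 CPM (−1.62 ± 0.39 from iMPP, edgeR adjusted p = 0.00423), where Gpx1 and Prdx2 were the 2 members called and 10.6% of genes were. B with NK cells held 606 and 745 CPM (−1.58 ± 0.39, edgeR adjusted p = 0.00530), again with Prdx2 the 2 members called, where 11.6% of genes were. Both Gpx1 calls were lost without any 1 of the libraries (adjusted p 0.0780 to 0.0971) and with the library as a random block. Gpx1 was highest in EryB (13080 CPM) and EryA (7574) and lowest in NK cell (423).

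Cat did not differ by the test on any day, with 63.2 ± 24.9 CPM in iHSC (SD, n = 12) and 49.6 ± 15.05 on day 7 (n = 10, log2 difference −0.27 ± 0.26, edgeR adjusted p = 0.514). It was detected in 40.8% of thinned iHSC (71.02% at full depth) and 46.0% of thinned day 7 cells (85.5%). By population it was highest in EryB (510.2 ± 601 CPM, n = 2) and lowest in Macrophage (12.5, 1 library of 24 cells). That Macrophage sum held 88642 CPM of neutrophil markers and 7080 CPM of monocyte and macrophage markers.

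Other genes of the same pathways were counted from lists. Of all genes tested, 4.28% were called higher and 3.29% lower on day 5, 10.4% higher and 10.4% lower on day 7, and 5.05% higher and 4.72% lower in iMPP. Of the thioredoxin and peroxiredoxin list, 2 of 18 were higher and 1 lower than iHSC on day 5, 2 higher and 3 lower on day 7, and 1 higher and 1 lower of 17 in iMPP. These counts include the members. Besides Txnip the 2 lower on day 7 were Sesn1 (−1.79 ± 0.36, edgeR adjusted p = 0.000343) and Srxn1 (−2.61 ± 0.60, edgeR adjusted p = 0.00170), which reduces overoxidized peroxiredoxins. The 5 of 18 called on day 7 lie near the 20.8% of all genes, and the list median was 0.02 against −0.10 over all genes. Of the glutathione list, 1 of 24 was higher and 1 lower on day 5, and 5 were higher and 2 lower on day 7, again near that share. Of the list of FOXO factors and targets, 0 of 15 were higher and 5 lower on day 7 (median −0.62), and 0 higher and 3 lower of 13 in iMPP (median −0.63, against −0.12 over all genes). Pik3ip1, a brake on PI3-kinase, fell by 1.72 ± 0.30 in iMPP (edgeR adjusted p = 0.000166), and Klf2 by 3.07 ± 0.61 (edgeR adjusted p = 0.000731). Of the alpha-arrestin, MondoA and glucose transporter list, to which Txnip also belongs, 3 of 9 were lower on day 7, the others being Arrdc3 (−1.79 ± 0.62) and Arrdc1 (−1.11 ± 0.40).

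Of the list of NRF2 pathway and NADPH supply genes, 0 of 20 were higher and 2 lower on day 5, the ferritin light chain Ftl1 (−1.21 ± 0.18, edgeR adjusted p = 4.78e-05) and the heavy chain Fth1 (−0.77 ± 0.16, edgeR adjusted p = 0.00137). On day 7, 5 of 20 were higher and 2 lower, where 20.8% of all genes were called. G6pdx, the first enzyme of the pentose phosphate pathway, rose by 2.37 ± 0.43 against iHSC (edgeR adjusted p = 0.000105) and by 2.54 ± 0.53 against day 5 (edgeR adjusted p = 0.0271). Taldo1 of the same pathway rose by 1.17 ± 0.22 (edgeR adjusted p = 0.000210), and the selenium carrier Sepp1 fell by 1.51 ± 0.28 (edgeR adjusted p = 0.000147). On day 1, 2 of 20 were higher, Tkt (2.18 ± 0.50, edgeR adjusted p = 0.00838) and the haem oxygenase Hmox1 (4.29 ± 1.06, edgeR adjusted p = 0.0147), and Gsto1 of the glutathione list was lower (−1.41 ± 0.37, edgeR adjusted p = 0.0231). Of all genes, 2.34% were higher on day 1. Hmox1 is abundant in macrophages, and 4 of 10 monocyte and macrophage markers were also higher on day 1 (list median 3.39). The day 1 sums of these markers, 1135 to 1345 CPM, lay inside the iHSC range of 21.6 to 3555 (median 75.9). The part of these markers in the Hmox1 difference was not tested. In iMPP, Ftl1 was lower by −0.73 ± 0.12 (edgeR adjusted p = 9.94e-05). All 10 mitosis genes rose on each of the 4 days and in iMPP. In the same comparisons 2 of 8 HSC markers fell on day 5, 6 on day 7 and 4 in iMPP, and 4 of 9 neutrophil markers rose on day 7 and 4 of 9 in iMPP. Of the megakaryocyte markers 1 of 6 rose on day 5, 4 of 6 on day 7 and 2 of 5 in iMPP, and 2 of 10 monocyte and macrophage markers rose on each of days 5 and 7.

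Cyba, a membrane subunit of the NADPH oxidase, was higher in the erythroblast gates than in iMPP (3.09 ± 0.29, edgeR adjusted p = 2.71e-10), beside the neutrophil markers given above. There, 11 of 24 glutathione and 11 of 20 NRF2 and NADPH supply genes were higher as well, where 9.04% of all genes were, among them Blvrb (4.69 ± 0.43, edgeR adjusted p = 9.71e-11) and Ftl1 (1.98 ± 0.20, edgeR adjusted p = 5.45e-10). Blvrb, which reduces biliverdin, was also higher in committed progenitors (3.88 ± 0.48, edgeR adjusted p = 4.98e-06). Granulocytes with monocytes had higher Cyba (2.90 ± 0.34, edgeR adjusted p = 1.08e-07), Prdx5 (3.24 ± 0.43, edgeR adjusted p = 1.69e-06), Ftl1 (1.70 ± 0.23) and Mgst1 (4.26 ± 0.61) than iMPP. T cells had higher Rac2 (2.10 ± 0.32) and Klf2 (5.13 ± 0.80) and lower Gstm1 (−5.63 ± 1.03) and Gstm5 (−5.60 ± 1.07). B with NK cells had higher Cyba (2.41 ± 0.35), Klf2 (5.25 ± 0.80) and Rac2 (2.10 ± 0.32) and lower Gclm (−4.13 ± 0.74), which feeds glutathione synthesis, beside the neutrophil and macrophage markers given above. Within libraries, Ftl1 was lower in Mki67 or Top2a positive cells, by −0.43 ± 0.08 in iMPP (edgeR adjusted p = 0.00179) and −0.62 ± 0.12 in transplanted cells (edgeR adjusted p = 0.00211). Fth1 (−0.53 ± 0.10) was lower too in the transplanted cells. In tMPP1 cells, Gsto1 was lower after transplantation (−1.06 ± 0.26, edgeR adjusted p = 0.0499).

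The genes whose pattern was most like that of a member were found over the 32 group means (28 populations and 4 days), on log2 (CPM + 1), among 6073 genes. Groups share libraries, so these correlations are a description. Txnip was closest to Egr1 (r = 0.869), Ier2 (0.837) and Pnisr (0.833). Egr1 held 627 ± 408 CPM in iHSC, 106 ± 115 in iMPP and 49.9 ± 45.9 on day 7. Prdx2 was closest to Urod (0.874), a haem synthesis enzyme, then Metap2 (0.862) and Prdx3 (0.859). Gpx1 was closest to Svip (0.865), Cdk1 (0.820) and Ptgr1 (0.811), and Cat to Pigq (0.741), Fam213a (0.733) and Arl4a (0.726). Among the members, Txn1 and Gpx1 had the highest correlation (0.746), and Txnip with Gpx1 the lowest (−0.43). Gm15441, the antisense partner of Txnip, held 0 to 11.8 CPM in iHSC, where Txnip held 204 to 1480. In T cells Gm15441 held 9.51 and 31.3 CPM, where Txnip held 205 and 327. Whether reads over both genes were lost or mixed was not tested.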

How the data were processed

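The authors deposited whole-number counts per gene and cell, without normalization, and a cell annotation (origin, population, predicted type). Per the submitters' processing notes the tools were TopHat and HTSeq and the build mm10; versions and strand setting were not given in the sources used here. The 578 cells without annotation were left out, and 120 cells of 3 libraries that pooled collection days entered no comparison by day. Gene positions are GRCm38.

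Counts were summed per library and group (at least 5 cells). Levels are CPM without further scaling. Tests used edgeR 4.0.16 in R 4.3.3 (filterByExpr, TMM, quasi-likelihood, two-sided) with Benjamini-Hochberg adjustment over all genes tested, and adjusted p under 0.05 was called. Detection was counted after thinning to 20000 counts per cell. The steps were tested on simulated data. Alternatives were RLE scaling, no filter, at least 10 cells, adjusted p under 0.01, DESeq2 1.42.0, limma 3.58.1 voom with the library as a random block, and left-out libraries. The fit on only those libraries that held both groups (library as a block), leaving out L4 and L49, tME1 cells, and single libraries in the tMPP1 and tMPP2 comparisons was chosen after seeing the data. Named genes were the 9 members in each comparison, the called pathway genes with the 4 smallest p per comparison, and the 3 genes most like Txnip, Prdx2, Gpx1 and Cat; Sesn1, Srxn1, Arrdc3, Arrdc1, Gm15441 and Junb were named after their values were seen. A gene that this rule names is not reported here. The members and lists were chosen with earlier results of these data known. Python 3.11.15, numpy 2.4.6, pandas 2.3.3 and scipy 1.17.1 were used.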

Additional observations from a re-analysis of the deposited data

Results flagged for a closer look

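Single libraries lay far from the rest of their group in 7 of 90 gene and group combinations tested with Dixon's criterion, which chance exceeds in about 1 of 20. On day 5 the spleen library L66 (8 cells) held 947 CPM of Prdx2, against 478 to 578 in the other libraries, and 2273 CPM of Gpx1, against 1629 to 1901. On day 7 library L49 (5 cells) held 1402 CPM of Prdx1, against 757 to 1041. Among day 7 tGM cells library L58 (5 cells) held 1334 CPM of Prdx1, against 136 to 457, and 583 CPM of Prdx2, against 47.2 to 149. In the same type L47 (7 cells) held 2502 CPM of Gpx1, against 3239 to 3408. In day 7 tMPP5 cells L47 held 218 CPM of Sod1, against 396 to 432.

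The 3 libraries that pooled collection days entered no comparison by day, and they held levels above all 12 iHSC libraries. Txn1 stood at 1608 CPM in L77 (days 5 and 7), 1310 in L80 and 1555 in L88 (both days 1 and 3), where the highest iHSC library held 1225 (1224.5). Prdx1 stood at 1283 CPM in L77 and 1245 in L80, where the highest iHSC library held 846.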

How the results depend on the processing

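Counts of members called stayed within 1.5 times the reported count in 145 of 183 alternatives. With DESeq2 they became 1 for day 1 (reported 0), 1 for day 7 (3), 2 for committed progenitors (1), 1 for granulocytes and monocytes (0), 4 for T cells (2), 1 for tMPP2 day 7 against day 5 (0) and 1 in each comparison by Mki67 or Top2a (0). With voom and the library as a block they became 4 on day 5 (2), 2 for day 7 against day 5 (0), 2 for committed progenitors, 1 for granulocytes and monocytes, 0 for T cells and 0 for B and NK cells (2). With no filter they became 1 on day 1 and 1 for the iMPP comparison by Mki67 or Top2a. At adjusted p under 0.01 they became 0 on day 3 (1), 1 in iMPP (3) and 0 in committed progenitors, and with RLE scaling 1 in iMPP. Day 3 fell to 0 without mixed libraries and with only the 2 groups in the fit, and day 7 against day 5 rose to 1 with only those groups. Day 5 fell to 1 without spleen libraries, committed progenitors to 0 without L4 and L49, and granulocytes and monocytes rose to 1 with at least 10 cells. Leaving out 1 library in turn gave 0 to 0 on day 3, 0 to 1 in committed progenitors, 3 to 5 in erythroblasts (5), 0 to 1 in T cells, 0 to 1 in B and NK cells and 0 to 1 for tMPP2 by day. With only the libraries that held both groups, 2 for day 7, 5 for iMPP and 3 for erythroblasts, and the library as a block, they were 1 on day 7, 1 in iMPP and 4 in erythroblasts; these fits use fewer libraries. The causes were not otherwise tested.

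Of 344 fold changes of single members (Txnip and called members), 283 kept direction and call, 46 lost the call, 5 gained it and 10 changed sign. All 10 were Txnip and uncalled: day 5 against day 3 was 0.0917 with at least 10 cells and −0.16 to 0.0819 leaving out 1 library. In erythroblasts it was 0.20 (voom), 0.0803 (without tME1) and 0.69 (within libraries holding both groups). Leaving out 1 library gave −1.18 to 0.96 in granulocytes and monocytes, −0.15 to 1.44 in B and NK cells and −0.52 to 0.0889 for tMPP2 by day, which was 0.58 without spleen libraries. In iMPP by Mki67 or Top2a it was 0.12 with at least 10 cells. RLE scaling moved the median of all genes on day 7 from −0.10 to −0.31 and the share of called genes that were higher from 50.1% to 35.5%. On day 5 that share moved from 56.6% to 44.7% and in iMPP from 51.7% to 38.9%. Numbers of genes called over the alternatives ran from 206 to 2200 on day 5 (1011), 128 to 4075 on day 7 (2784) and 119 to 2254 in iMPP (1022), the lowest values of the last 2 within libraries holding both groups. Levels as means over cells differed by more than 1 SD in 14 of 99 cases, and detection at full depth in 53 of 99. By replicate number, no paired analysis was possible because the labels give no such numbers shared by the groups compared, so the only pairs were the libraries that held both groups.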

Other observations

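In the 3 libraries that pooled collection days, Txnip held 43.4 CPM in L77 (days 5 and 7), 253 CPM in L80 and 277 CPM in L88 (both days 1 and 3). It was detected in 28.9%, 85.7% and 74.1% of their thinned cells. Gpx1 held 2267, 1951 and 1565 CPM in the same libraries, and Sod2 held 323, 152 and 168 CPM.

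Cells of predicted type tME1 also occurred on day 7, in libraries L47, L59 and L60. Their neutrophil markers summed to 105659 to 143729 CPM and their Prdx2 was 33.6 to 194 CPM, below the Prdx2 of all tME2 sums of the erythroblast gates.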
